A study of Mus musculus with 8 samples.

Results

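The comparison described here is that of STAT3-deficient with wild-type group 2 innate lymphoid cells (ILC2s) after activation with interleukin-33 (IL-33), measured by RNA-seq. It rests on 4 of the 8 libraries of the study, 2 of each genotype, and on the 10467 of 22075 listed genes whose FPKM (a level of fragments scaled by gene length and by library depth) was at least 1 in at least 2 of these 4 libraries. The cells were lung ILC2s of C57BL/6 mice after a short exposure to papain, a protease allergen. A culture of about 5 days with IL-2 at 10 ng/ml came before 2 more days with IL-33, also at 10 ng/ml. The wild type (WT) carried the Stat3fl/fl allele without a recombinase, and the knockout (STAT3-KO) was VavicreStat3fl/fl, in which the Vav promoter drives Cre recombinase in blood-forming cells and so not in ILC2s alone. Both genotypes therefore share the floxed allele, and the presence of Cre and the loss of STAT3 cannot be told apart. Control libraries of both genotypes, 2 each, had no IL-33; what their medium held in the last 2 days is not described. The labels do not say whether replicates came from separate mice or cultures, so p-values measure only the spread between these libraries, which may be technical.

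STAT3 is a transcription factor that JAK kinases phosphorylate below receptors such as those for IL-6, IL-10, IL-21 and IL-23. It is best known in lymphocytes for the induction of its own inhibitor SOCS3 and for the IL-17-producing programme of helper T cells. IL-33 is an alarmin released by damaged epithelium. It binds the receptor ST2, encoded by Il1rl1, and acts through MyD88 and NF-kB rather than directly through a STAT. ILC2s lack antigen receptors, depend on GATA3, and answer IL-33 in the lung with IL-5 and IL-13, which drive eosinophils, mucus and airway hyperreactivity.

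A gene is called here when its adjusted p was under 0.05 for the difference STAT3-KO minus WT of log2(FPKM + 1), in limma with Benjamini-Hochberg adjustment over all 10467 genes, two-sided. Differences are given on that scale with their standard error (n = 2 libraries per genotype), and they understate the change of genes with low FPKM. Library depth, recovered from the steps between low FPKM values, was 15843680 to 19905800 reads. A gene with 1 kb of exons and 3 reads would have between 0.151 and 0.189 FPKM at these depths, and values of that size are near the limit of detection (counting error only). Replicates correlated across genes at r = 0.977 to 0.986. All 14 ILC2 markers in the table were above 1 FPKM in at least one of the 4 libraries. Of 12 T cell markers in the table, 2 were at 0 in all 4 libraries, Cd8a among them, and 7 stayed under 1 FPKM, including Cd3e and Cd3d. The summed FPKM of the T cell markers was nevertheless 118 and 146 in WT and 110 and 101 in STAT3-KO, most of it from the signalling genes Zap70 (79.0 to 100.1) and Lat (29.7 and 37.3 FPKM in WT and 10.2 and 5.49 FPKM in STAT3-KO), with Cd3g at 3.97 to 6.72. Of 8 dendritic cell markers, 4 stayed under 1 FPKM, including Itgax and Flt3, while Xcr1 was at 3.70 to 6.80 and Batf3 at 4.28 and 5.16 FPKM in WT and 15.6 and 12.7 FPKM in STAT3-KO. The part of such cells in the results was not tested. The summed FPKM of the ILC2 markers was 10979 and 11763 in WT and 4399 and 3995 in STAT3-KO with IL-33. In control cells it was 4102 and 4203 in WT and 3907 and 3841 in STAT3-KO. Its largest members in WT with IL-33 were Il5 (3602 and 3398 FPKM) and Il13 (2021 and 2783 FPKM). These genes were at 36.0 to 49.2 and 30.6 to 47.8 FPKM in the control libraries. In bulk libraries, fewer cells of a type and less RNA per cell cannot be told apart.

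Stat3 itself was measured first as a check of the labels. It stood at 48.98 and 55.3 FPKM in WT and 8.03 and 9.69 FPKM in STAT3-KO with IL-33 (-2.43 ± 0.15, adjusted p = 7.49e-06). The groups did not overlap, but reads of Stat3 did not disappear from the STAT3-KO libraries. In control cells Stat3 was 41.7 and 50.7 FPKM in WT and 15.3 and 15.996 FPKM in STAT3-KO (-1.497 ± 0.15, adjusted p = 0.00421). A whole-gene value does not show which exons the remaining reads cover.

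Socs3, the feedback inhibitor that STAT3 induces, was among the genes with the largest falls. Its level was 167 and 191 FPKM in WT and 14.8 and 16.4 FPKM in STAT3-KO (-3.43 ± 0.15, adjusted p = 1.43e-06). In control cells it was 5.92 and 5.83 FPKM in WT and 2.57 and 3.34 FPKM in STAT3-KO, so that both WT libraries with IL-33 stood far above all other libraries. The Socs3 promoter is shown because it holds the palindrome TTCNNNGAA to which STAT dimers bind. The 250 bases before the start of transcription, from RefSeq on GRCm38.p6, lie at chr11:117969367-117969616 on the minus strand. Capitals mark the motif, whose first base is at position -154 from the start.
Socs3: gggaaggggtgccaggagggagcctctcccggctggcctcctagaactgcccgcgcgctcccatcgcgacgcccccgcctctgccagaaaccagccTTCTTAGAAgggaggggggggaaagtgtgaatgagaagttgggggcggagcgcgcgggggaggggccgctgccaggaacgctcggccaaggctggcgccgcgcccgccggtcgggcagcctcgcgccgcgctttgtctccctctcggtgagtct
The motif was searched on both strands, which for a palindrome give the same matches. Among genes at large, 8.13% of 27025 symbols with a RefSeq promoter held it. So did 7.28% of the 1511 genes higher in STAT3-KO, 8.23% of the 1507 genes lower and 7.04% of the 4559 genes not called. A gene with several promoters counted when any of them held the motif. Of 17 matched genes linked to STAT3 in other cells, 1 (5.88%) held it. In the same window upstream of Il9, Gzmb, Hif1a, Bcl3 and Bcl2l1, genes described below, there was no match. A match describes these letters only and does not show binding.

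In all, 4100 of the 10467 genes (39.2%) were called, 2080 higher (19.9%) and 2020 lower (19.3%) in STAT3-KO. The differences were mostly moderate: 1578 called genes differed at least 2-fold, 667 higher and 911 lower, and the absolute log2 difference of called genes had a median of 0.87 and quartiles of 0.64 and 1.23. At least 8-fold were 21 genes higher and 29 lower. The values of the genotypes did not overlap in any called gene, nor in 70.5% of all tested genes. The counts depended on single libraries. Without WT library 2 there were 2382 called genes (1180 higher, 1202 lower), without WT library 1 there were 2683 (1298 and 1385), and without STAT3-KO library 1 there were 2872 (1369 and 1503). Over all tested genes the median difference was 0.03. It moved with gene length, from 0.15 in the 2092 genes with the shortest merged exons to -0.20 in the 2090 with the longest, of 5 classes by length; in control cells the range over these classes was -0.02 to 0.07. In the shortest class 23.9% of genes were called higher and 13.05% lower, and in the longest class 9.14% and 28.6%. The part of length in single results was not tested, other than by removing the trend. Every list below is read against 19.9% higher, 19.3% lower and a median of 0.03.

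**Figure D1:**
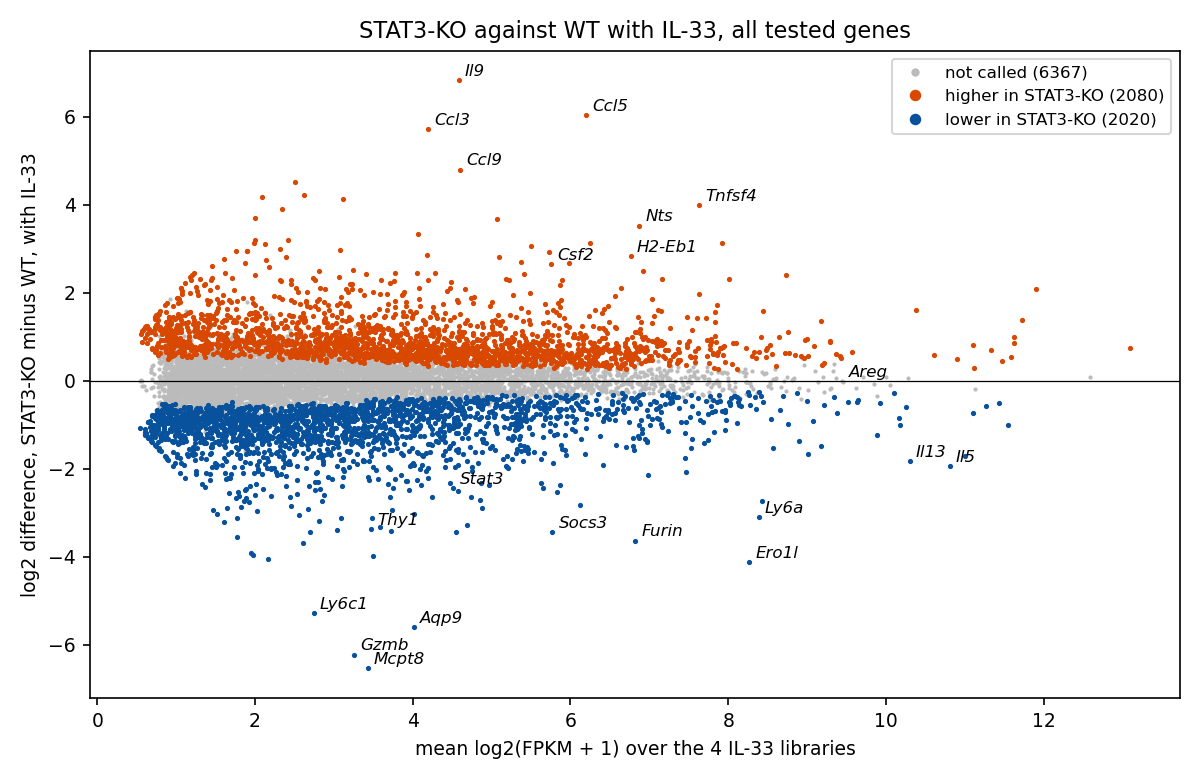
Each point is 1 of the 10467 tested genes. The horizontal axis is the mean log2(FPKM + 1) of the 4 IL-33 libraries and the vertical axis the log2 difference STAT3-KO minus WT, with called genes coloured. Il9 and Ccl5 stand highest at 6.84 and 6.04, and Mcpt8 and Gzmb lowest at -6.54 and -6.22.

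The main type 2 cytokines were lower and another set of cytokines was higher in STAT3-KO. Il5, the eosinophil growth factor, was 3602 and 3398 FPKM in WT and 1023 and 818 FPKM in STAT3-KO (-1.93 ± 0.13, adjusted p = 1.09e-05). Il13, which drives mucus and airway contraction, was 2021 and 2783 FPKM in WT and 719.6 and 625 FPKM in STAT3-KO (-1.82 ± 0.16, adjusted p = 5.24e-05). In both genes the WT libraries stood above both STAT3-KO libraries without overlap, and Il5 and Il13 remained abundant in STAT3-KO. Il4, made at low levels by ILC2s, was 6.80 and 5.26 FPKM in WT and 2.70 and 2.61 FPKM in STAT3-KO (-0.93 ± 0.20, adjusted p = 0.00663), and without WT library 1 it was no longer called (-0.78, adjusted p = 0.056). Areg, the epithelial growth factor amphiregulin, was 727 and 679.95 FPKM in WT and 745 and 648 FPKM in STAT3-KO (-0.02 ± 0.31, adjusted p = 0.971), so that its groups overlapped. An SE of this size leaves room for differences in either direction.

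Il9, a mast cell and ILC2 growth factor, went the other way with the largest rise of all named genes. It was 1.78 and 0.802 FPKM in WT and 295 and 220.4 FPKM in STAT3-KO (6.84 ± 0.25, adjusted p = 6.59e-07). Without IL-33 it was 0 and 0 FPKM in WT and 0.222 and 0.116 FPKM in STAT3-KO, so that the STAT3-KO pair with IL-33 stood far above the other 6 libraries. Csf2, encoding GM-CSF, was 20.9 and 20.2 FPKM in WT and 147 and 124 FPKM in STAT3-KO (2.66 ± 0.13, adjusted p = 2.57e-06). Nts, the precursor of the peptide neurotensin, was 34.1 and 32.9 FPKM in WT and 436 and 363 FPKM in STAT3-KO (3.53 ± 0.15, adjusted p = 1.43e-06) and was listed at 0 in all 4 control libraries. In each of these 3 genes both STAT3-KO libraries lay above both WT libraries. Lta, encoding lymphotoxin alpha, was 125 and 105 FPKM in WT and 599.6 and 542 FPKM in STAT3-KO (2.31 ± 0.12, adjusted p = 2.65e-06); it made up nearly all of the ILC3 marker sum, 126 and 105 FPKM in WT and 600.4 and 543 in STAT3-KO. Ebi3, a subunit of IL-27 and IL-35, was 49.2 and 44.4 FPKM in WT and 238 and 179 FPKM in STAT3-KO (2.12 ± 0.19, adjusted p = 6.31e-05). Il6 was low in both genotypes, 4.24 and 3.37 FPKM in WT and 9.17 and 9.27 FPKM in STAT3-KO (1.10 ± 0.26, adjusted p = 0.00886); its call was lost without WT library 2 (0.96, adjusted p = 0.0804) and without STAT3-KO library 1 (1.10, adjusted p = 0.0506).

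Among 26 tested secreted cytokines and growth factors, 11 were higher and 9 lower in STAT3-KO, with a median of 0.21, which was -0.10 over genes of at least 5 FPKM. The lower members included the regulatory cytokine Il10 (-1.30 ± 0.23, adjusted p = 0.00223) and Il24, a member of the IL-10 family (-2.20 ± 0.20, adjusted p = 6.95e-05). Osm, encoding oncostatin M of the IL-6 family, was -0.82 ± 0.11 (adjusted p = 0.000456), and its relative Lif was on the higher side at 0.80 ± 0.13 (adjusted p = 0.00125). Tnf was 0.63 ± 0.12 (adjusted p = 0.00293).

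The type 2 cytokine genes lie together on chromosome 11, and within this region the sign of the difference changed with position. The stretch from Il4 to Il3, chr11:53602982-54267277 on GRCm38 (0.664 Mb), was picked after its values had been seen. It holds 21 listed genes, 12 of them tested, of which 4 were lower and 7 higher. The lower genes were Il4, Il13, Rad50 (-0.33) and Il5, which are the first tested genes of the stretch. After Il5 come Irf1 (0.48), Slc22a5, which was not called (0.21, adjusted p = 0.458), the collagen hydroxylase P4ha2 (1.84), Csf2 and Il3. Il3, encoding a growth factor of basophils and mast cells, was 0.319 and 0 FPKM in WT and 2.83 and 1.43 FPKM in STAT3-KO (1.41 ± 0.25, adjusted p = 0.00218), a low level near the limit of detection in WT. Gm12223 (2.30) overlaps Csf2 on the opposite strand, and the table does not separate the reads of such pairs. Whether the region's order bears on the difference was not tested.

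**Figure D2:**
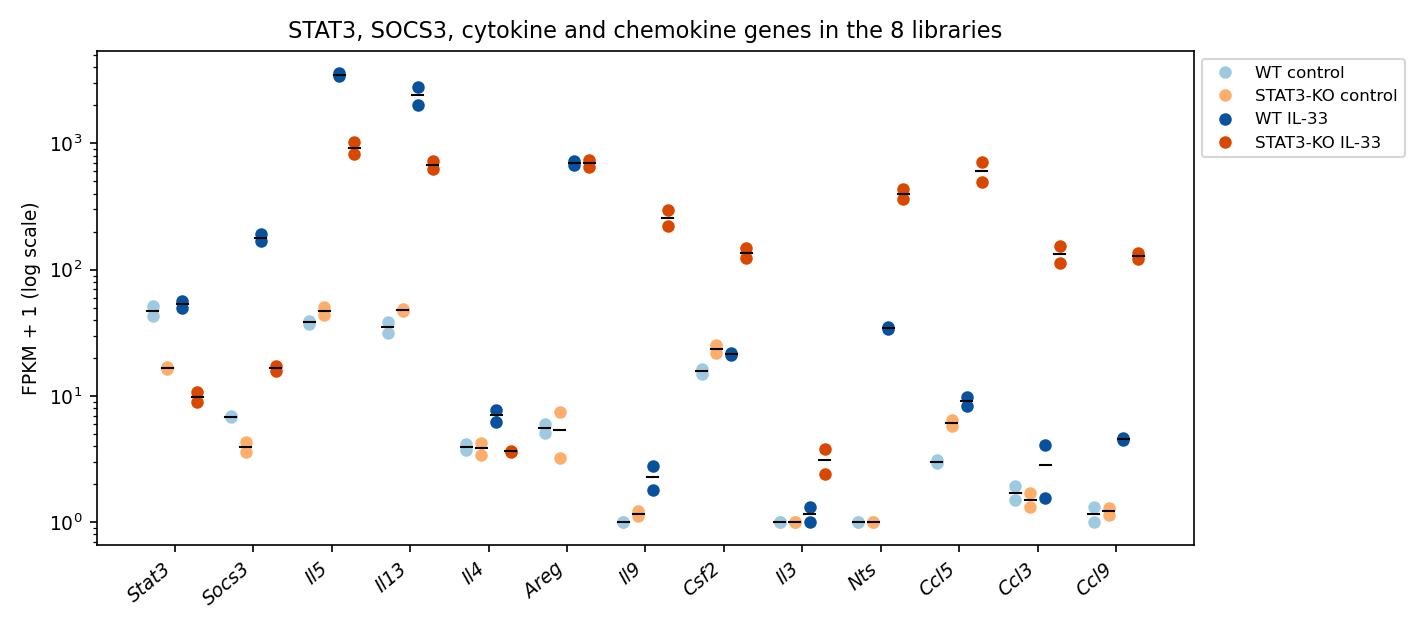
FPKM + 1 on a log axis of Stat3, Socs3, cytokine and chemokine genes in each of the 8 libraries, as points, with a line at each group's mean. Il5 and Il13 fell in STAT3-KO with IL-33 while Il9, Csf2 and the chemokines Ccl5, Ccl3 and Ccl9 rose, and the Areg points of the genotypes overlap.

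Most chemokine genes were higher. Of 10 tested chemokine genes, 8 were higher and 2 lower, with a median difference of 2.68. Ccl5, which attracts T cells and eosinophils, was 8.90 and 7.30 FPKM in WT and 718 and 492 FPKM in STAT3-KO (6.04 ± 0.19, adjusted p = 2.69e-07). Ccl3, a ligand of CCR1, was 3.08 and 0.561 FPKM in WT and 154 and 113 FPKM in STAT3-KO (5.72 ± 0.40, adjusted p = 1.44e-05), and Ccl9, another CCR1 ligand, was 3.48 and 3.67 FPKM in WT and 135 and 119.8 FPKM in STAT3-KO (4.81 ± 0.20, adjusted p = 1.4e-06). In control cells none of these 3 exceeded 7 FPKM in any library. Ccl4 (2.96), Cxcl10 (2.96) and the eosinophil attractant Ccl24 (2.03) were higher too. Ccl22 was listed at 0 in both WT libraries and at 4.91 and 3.78 FPKM in STAT3-KO, and Ccl17 at 0 against 1.31 and 1.20 FPKM, so that no fold can be given. The neutrophil attractants Cxcl2 and Cxcl3 were lower. Cxcl2 was 7.92 and 6.48 FPKM in WT and 1.25 and 0.653 FPKM in STAT3-KO (-2.08 ± 0.25, adjusted p = 0.000297). Cxcl3 lost its call without STAT3-KO library 2 (-0.59, adjusted p = 0.105) and without WT library 1 (-0.60, adjusted p = 0.13), in each of which 1 chemokine remained lower. Ccl5, Ccl9, Ccl3 and Ccl4 lie within 0.139 Mb at chr11:83525778-83664683, a stretch also picked after the values were seen, in which all 4 tested genes were higher. The other listed genes there, Ccl6 and E230016K23Rik, were below the FPKM minimum for testing.

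Receptors of cytokines were lower more often than higher. Of 28 tested, 18 were lower and 5 higher, with a median of -0.82; without STAT3-KO library 2 or WT library 1, 3 were higher. The IL-33 receptor gene itself, Il1rl1, was 350.1 and 369.5 FPKM in WT and 78.5 and 92.4 FPKM in STAT3-KO (-2.06 ± 0.23, adjusted p = 0.000185). Il2ra, the alpha chain of the IL-2 receptor, was 889.8 and 1049 FPKM in WT and 328 and 363 FPKM in STAT3-KO (-1.48 ± 0.15, adjusted p = 0.000112). Il7r, the receptor for the ILC2 survival factors IL-7 and TSLP, was 180.4 and 173 FPKM in WT and 69.6 and 78.4 FPKM in STAT3-KO (-1.25 ± 0.10, adjusted p = 3.11e-05), and its partner for TSLP, Crlf2, was 45.5 and 60.9 FPKM in WT and 22.6 and 13.6 FPKM in STAT3-KO (-1.53 ± 0.22, adjusted p = 0.000708). In each of these 4 genes both WT libraries were above both STAT3-KO libraries. Kit, the stem cell factor receptor, was 8.47 and 8.74 FPKM in WT and 0.447 and 0.189 FPKM in STAT3-KO (-2.87 ± 0.37, adjusted p = 0.000407). The receptors higher in STAT3-KO included Il10ra (1.43 ± 0.14, adjusted p = 0.000114), which binds IL-10 and signals through STAT3, and Il12rb1 (0.85 ± 0.11, adjusted p = 0.000506), and Csf2ra, the receptor of the product of Csf2 (1.37 ± 0.32, adjusted p = 0.00858).

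Markers of ILC2s were mostly lower too, but this list is not separate from the others. It holds Il5, Il13, Il1rl1, Il2ra and Il7r, described above, and Gata3 and Id2, which are also counted among the lineage factors below. Of 14 tested ILC2 markers, 11 were lower, none was higher, and the median was -1.30. Thy1, a surface glycoprotein used to sort ILC2s, was 31.7 and 38.01 FPKM in WT and 2.56 and 2.37 FPKM in STAT3-KO (-3.37 ± 0.14, adjusted p = 1.4e-06). Klrg1, an inhibitory receptor of activated ILC2s, was 884 and 944 FPKM in WT and 279 and 298 FPKM in STAT3-KO (-1.66 ± 0.10, adjusted p = 7.12e-06), and Arg1, arginase of ILC2s, was 510.5 and 496 FPKM in WT and 292 and 261 FPKM in STAT3-KO (-0.86 ± 0.10, adjusted p = 0.000185). Gata3, the lineage factor, was 278 and 292 FPKM in WT and 175 and 171 FPKM in STAT3-KO (-0.72 ± 0.09, adjusted p = 0.000273), a smaller difference than those of Il5 and Il13. Rora was 6.36 and 6.27 FPKM in WT and 6.49 and 6.32 FPKM in STAT3-KO (0.02 ± 0.15, adjusted p = 0.94) and Bcl11b was 6.70 and 8.33 FPKM in WT and 10.97 and 8.96 FPKM in STAT3-KO (0.37 ± 0.18, adjusted p = 0.134), both uncalled. Ptprc, the CD45 gene of all leukocytes, was lower as well (-1.35 ± 0.19, adjusted p = 0.000622).

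Among 30 tested lineage transcription factors, 12 were lower and 5 higher, with a median of -0.32. Higher members numbered 3 without STAT3-KO library 2 and 2 without WT library 2. Id3, an inhibitor of E proteins, was 34.5 and 39.5 FPKM in WT and 4.21 and 1.73 FPKM in STAT3-KO (-3.33 ± 0.25, adjusted p = 2.45e-05), and Id2, the E protein inhibitor on which ILCs depend, was 1433 and 1463 FPKM in WT and 649.6 and 594 FPKM in STAT3-KO (-1.22 ± 0.09, adjusted p = 2.58e-05). Ets1 (-2.70 ± 0.12, adjusted p = 1.71e-06) and the Ikaros genes Ikzf1 (-1.90) and Ikzf3 (-1.93) were lower. Tbx21, encoding T-bet of type 1 lymphocytes, was 0 and 0.444 FPKM in WT and 4.44 and 4.55 FPKM in STAT3-KO (2.19 ± 0.23, adjusted p = 0.000126), low but without overlap, and it was also higher in control cells (2.23 ± 0.23, adjusted p = 0.00487). Irf4, a factor that supports Il9, was 27.6 and 23.5 FPKM in WT and 39.4 and 62.4 FPKM in STAT3-KO (0.93 ± 0.21, adjusted p = 0.00704), and its call was lost without WT library 2 (0.82, adjusted p = 0.0727).

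Several cytotoxic granule genes were near or at 0 in STAT3-KO. Of 9 tested, 6 were lower and 1 higher, with a median of -1.80. Gzmb, encoding the protease granzyme B, was 78.6 and 83.9 FPKM in WT and 0.214 and 0 FPKM in STAT3-KO (-6.22 ± 0.17, adjusted p = 1.35e-07). In control cells Gzmb was 11.8 and 9.27 FPKM in WT and 17.7 and 16.9 FPKM in STAT3-KO, so that with IL-33 it was higher in WT and near 0 in STAT3-KO. Gzme was 6.31 and 7.04 FPKM in WT and 0 in both STAT3-KO libraries, and Prf1, the pore-former perforin, was 2.61 and 2.07 FPKM in WT and listed at 0 in both STAT3-KO libraries. Ctsw, the lysosomal protease cathepsin W of cytotoxic cells, was 39.1 and 45.03 FPKM in WT and 1.84 and 4.75 FPKM in STAT3-KO (-3.41 ± 0.27, adjusted p = 2.88e-05), and Nkg7 was 7.69 and 7.73 FPKM in WT and 1.14 and 0.123 FPKM in STAT3-KO (-2.49 ± 0.30, adjusted p = 0.000274). Gzmf alone was higher, from very low levels, and lost its call without WT library 1 (1.13, adjusted p = 0.0674). Markers of NK cells and ILC1, 10 in the table, summed to 3.25 and 3.12 FPKM in WT and 4.50 and 5.14 in STAT3-KO, with Eomes, Klrb1c and Klrd1 at 0 in all 4 libraries. The WT sum was mostly the granule genes Prf1 and Gzma (0.649 and 0.611), so it is not separate from the granule result. The STAT3-KO sum was mostly Tbx21 (4.44 and 4.55). In control cells the sum was 11.9 and 10.4 FPKM in WT and 33.7 and 29.7 in STAT3-KO. The part of NK cells and ILC1 in the granule result was not tested.

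Mcpt8, a mast cell and basophil protease, had the largest fall of all named genes. It was 92.8 and 114 FPKM in WT and 0.246 and 0 FPKM in STAT3-KO (-6.54 ± 0.21, adjusted p = 2.69e-07), and in control cells it was at most 0.126 FPKM in any library. Mcpt8 lies beside the granzyme genes: from Mcpt8 to Gzmb, chr14:56082166-56262260, 3 of 4 tested genes were lower and 1 higher, in a stretch picked after seeing the values. Cpa3, a mast cell protease (-2.20 ± 0.14, adjusted p = 9.93e-06), and Kit were lower with it. Cpa3 with IL-33 was 34.6 and 41.8 FPKM in WT and 7.52 and 7.49 FPKM in STAT3-KO. Unlike Mcpt8, it was abundant in control cells, at 325.9 and 298.9 FPKM in WT and 110.9 and 140.4 FPKM in STAT3-KO. It was thus already lower there (-1.32 ± 0.14, adjusted p = 0.0067). The summed markers of mast cells and basophils, of which 5 of 12 were in the table, were 136 and 164 FPKM in WT and 9.17 and 7.72 in STAT3-KO, made up of Mcpt8, Cpa3 and Kit. In control cells the sum was 337 and 330 FPKM in WT and 142 and 171 in STAT3-KO, most of it Cpa3. Cma1 and Hdc were below 1 FPKM in all 4 libraries, and the part of such cells in the result was not tested.

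Surface molecules for cell contacts moved both ways. Of 26 tested co-stimulatory and inhibitory molecules, 8 were higher and 8 lower (median 0.14, or -0.03 with the length trend removed and 0.03 without WT library 2). The list also holds the enzyme gene Arg1, described above. Tnfsf4, the OX40 ligand by which ILC2s stimulate T cells, was 48.5 and 49.1 FPKM in WT and 748 and 837 FPKM in STAT3-KO (3.99 ± 0.10, adjusted p = 8.42e-08). This was the smallest adjusted p among the named rises, and Tnfsf4 was also higher in STAT3-KO control cells, 109.98 and 114 against 51.9 and 50.1 FPKM. Cd70, the CD27 ligand, is not in this list. Its level was 6.50 and 10.7 FPKM in WT and 143 and 98.2 FPKM in STAT3-KO (3.67 ± 0.25, adjusted p = 1.25e-05). It was also higher in STAT3-KO control cells, at low levels (1.59 ± 0.25, adjusted p = 0.0339). Cd83, also outside the list, was 0.332 and 0.526 FPKM in WT and 22.5 and 29.5 FPKM in STAT3-KO (4.23 ± 0.27, adjusted p = 9.45e-06). Within the list, Cd200 was 0.847 and 1.13 FPKM in WT and 10.7 and 15.8 FPKM in STAT3-KO (2.82 ± 0.23, adjusted p = 3.26e-05). Ctla4, an inhibitory receptor, was lower, at 9.75 and 6.99 FPKM in WT and 0.342 and 0.604 FPKM in STAT3-KO (-2.66 ± 0.23, adjusted p = 4.88e-05). Havcr2 and Lag3, inhibitory receptors, were higher (1.499 ± 0.23, adjusted p = 0.00109, and 1.79 ± 0.24, adjusted p = 0.000507).

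Of 9 tested MHC class II genes, 8 were higher and none was lower, with a median of 1.23. H2-Eb1, a class II beta chain, was 38.99 and 40.1 FPKM in WT and 308 and 272 FPKM in STAT3-KO (2.84 ± 0.15, adjusted p = 4.38e-06). H2-DMa, which loads peptides, was 17.2 and 17.3 FPKM in WT and 108 and 87.5 FPKM in STAT3-KO (2.42 ± 0.14, adjusted p = 6.19e-06), and H2-Aa was 25.7 and 26.98 FPKM in WT and 141 and 108 FPKM in STAT3-KO (2.19 ± 0.15, adjusted p = 1.6e-05). The invariant chain Cd74 was 1.23 ± 0.16 (adjusted p = 0.000431). Ciita, the master regulator of these genes, was low in all 4 libraries and not called (-0.41 ± 0.18, adjusted p = 0.102). H2-Eb1 and H2-DMb2 were higher in control cells too. The B cell list summed to 13.9 and 13.1 FPKM in WT and 22.4 and 19.9 in STAT3-KO, almost all of it Cd79b, and the dendritic cell list to 121 and 138 FPKM in WT and 339 and 339 in STAT3-KO, most of it Ccr7. The part of other cells in the class II result was not tested.

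Migration genes were lower more often than higher: of 28 tested, 16 were lower and 7 higher, with a median of -0.45, or -0.26 for genes of at least 5 FPKM. With genes of at least 5 FPKM, 10 were lower. Itgb3, an integrin, was 25.6 and 22.5 FPKM in WT and 1.94 and 1.81 FPKM in STAT3-KO (-3.12 ± 0.30, adjusted p = 8.96e-05). Ccr2, the receptor of CCL2, was 344 and 299.7 FPKM in WT and 84.96 and 104 FPKM in STAT3-KO (-1.76 ± 0.12, adjusted p = 1.39e-05), and Ccr8 was 302 and 324 FPKM in WT and 104 and 113 FPKM in STAT3-KO (-1.52 ± 0.10, adjusted p = 9.55e-06). Ccr7, the receptor for homing to lymph nodes, was higher at 109 and 127 FPKM in WT and 318 and 319.7 FPKM in STAT3-KO (1.43 ± 0.11, adjusted p = 2.88e-05), as was the prostaglandin receptor Ptger4 (1.80 ± 0.11, adjusted p = 9.55e-06). S1pr1, by which lymphocytes leave tissues, was 0.69 ± 0.19 (adjusted p = 0.0161) with IL-33. In control cells S1pr1 (1.17 ± 0.19, adjusted p = 0.0365) and Ptger4 (0.82 ± 0.11, adjusted p = 0.0197) were higher in STAT3-KO as well.

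**Figure D3:**
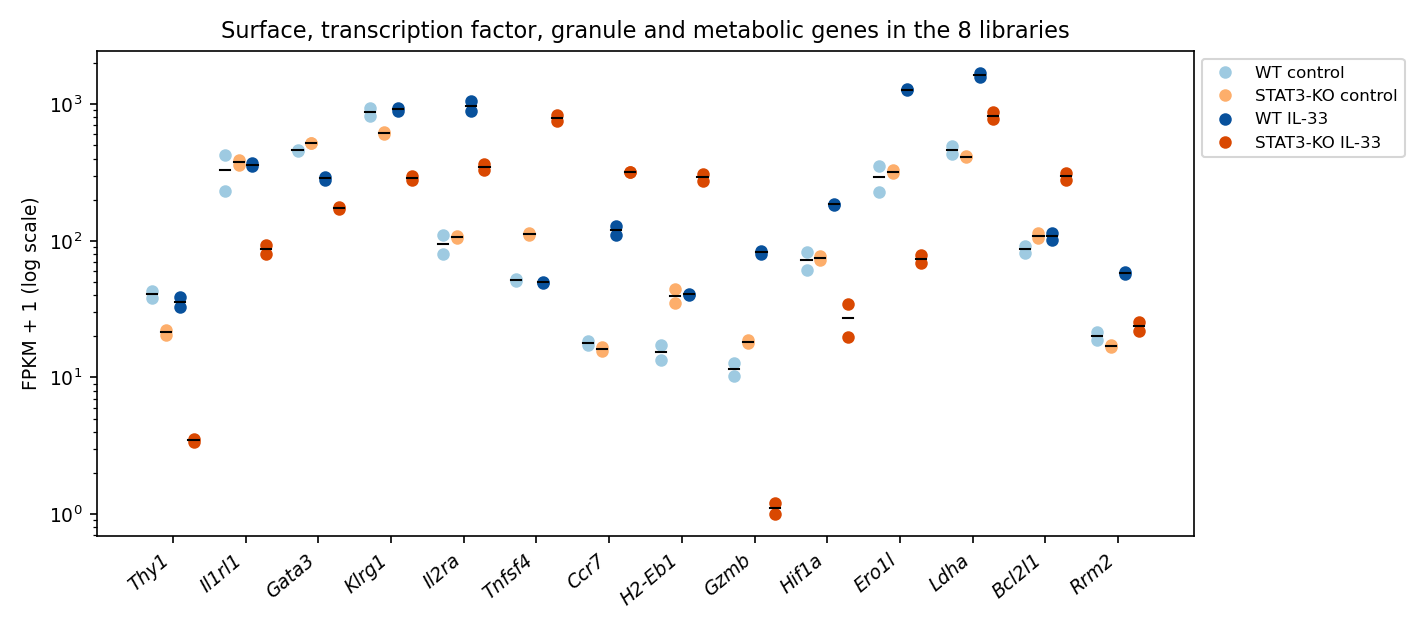
FPKM + 1 on a log axis of identity, surface, granule, metabolic and cell cycle genes in each of the 8 libraries, with a line at each group's mean. Thy1, Il1rl1, Klrg1, Gzmb, Hif1a, Ero1l, Ldha and Rrm2 are lower in STAT3-KO than in WT with IL-33, and Tnfsf4, Ccr7, H2-Eb1 and Bcl2l1 are higher.

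Interferon-stimulated genes had median differences of opposite sign with and without IL-33. With IL-33, 19 of 32 tested were higher and 5 lower, with a median of 0.52. In control cells 0 were higher and 4 lower, with a median of -0.24, against 0.382% of genes called there. Without WT library 1 there were 10 higher and 2 lower members with IL-33, without WT library 2 there were 12 and 3, and without STAT3-KO library 1 there were 3 lower, so that this count leaned on single libraries. Gbp2, a guanylate-binding protein, was 16.1 and 14.5 FPKM in WT and 71.5 and 89.7 FPKM in STAT3-KO (2.32 ± 0.13, adjusted p = 6.61e-06), and Igtp, an immunity-related GTPase, was 79.7 and 82.3 FPKM in WT and 248 and 239.5 FPKM in STAT3-KO (1.58 ± 0.12, adjusted p = 2.7e-05). Igtp in control cells was 214 and 173 FPKM in WT and 99.1 and 114 FPKM in STAT3-KO (-0.85 ± 0.12, adjusted p = 0.022). Iigp1 was listed at 0 in both WT libraries and at 14.7 and 19.8 FPKM in STAT3-KO. On the lower side were Isg20 (-1.49 ± 0.22, adjusted p = 0.000929), Parp14 (-1.15 ± 0.20, adjusted p = 0.00203), Ifit2 (-0.90), Oas3 (-0.79) and Stat2, whose call was lost without WT library 1 (-0.76, adjusted p = 0.0639).

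The 250-base windows of 2 of these genes are shown because both hold the letters GAAANNGAAA, an arrangement like the interferon-stimulated response element, searched on both strands; in Gbp2 it lies on the opposite strand, so that the capitals show its reverse complement. Among the 27025 symbols 3.46% hold it, and among 24 matched genes of the interferon list 13 (54.2%). It was held by 3.04% of genes higher in STAT3-KO, 3.25% of genes lower and 3.33% of genes not called. The same windows of Ifi47 and Irf9, genes described below, gave no match. Of the 24 interferon list genes, 10 (41.7%) hold TTCNNNGAA against 8.13%. Gbp2 lies at chr3:142620413-142620662 on the plus strand, with the first base of the motif at -59, and Igtp at chr11:58199306-58199555 on the plus strand, with the motif at -34. Capitals mark the motif.
Gbp2: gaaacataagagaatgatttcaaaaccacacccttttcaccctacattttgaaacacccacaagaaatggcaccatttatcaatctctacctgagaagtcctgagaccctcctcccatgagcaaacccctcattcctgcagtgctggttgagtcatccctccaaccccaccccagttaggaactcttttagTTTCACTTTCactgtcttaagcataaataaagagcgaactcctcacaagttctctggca
Igtp: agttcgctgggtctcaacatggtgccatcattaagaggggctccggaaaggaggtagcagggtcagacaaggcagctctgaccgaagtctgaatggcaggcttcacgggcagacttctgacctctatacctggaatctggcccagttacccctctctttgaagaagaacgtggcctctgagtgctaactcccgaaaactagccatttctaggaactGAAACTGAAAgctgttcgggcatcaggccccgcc

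The other STATs and JAKs, 10 tested, gave 3 higher and 4 lower (2 lower without WT library 2). Jak1 was 109 and 109 FPKM in WT and 30.6 and 36.2 FPKM in STAT3-KO (-1.68 ± 0.15, adjusted p = 5.04e-05), and Stat5a, which acts below IL-2, IL-7 and GM-CSF, was 12.4 and 12.7 FPKM in WT and 26.2 and 29.6 FPKM in STAT3-KO (1.09 ± 0.16, adjusted p = 0.000851). Of 22 tested genes linked to STAT3 in other cells, 8 were lower and 4 higher, with a median of 0.01 that changed sign under other settings. Besides Socs3, the lower ones included Hif1a (-2.82 ± 0.24, adjusted p = 3.89e-05), Bcl3 (-2.31 ± 0.23, adjusted p = 0.000111) and Prdm1, which encodes Blimp-1 (-2.18 ± 0.31, adjusted p = 0.000679). Of 15 tested inhibitors of the SOCS, CISH and PIAS groups and phosphatases, 5 were higher and Socs3 alone was lower; without STAT3-KO library 1 there were 3 higher and without WT library 1 there were 2. Ptpn6, the phosphatase SHP-1, was 1.26 ± 0.15 (adjusted p = 0.000273).

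The NF-kB list, through which IL-33 acts, had 4 higher and 4 lower of 20 tested, close to the background; with the length trend removed, 7 were higher. Nfkb2 was higher (0.95 ± 0.10, adjusted p = 0.00012) and Nfkb1 lower (-1.02 ± 0.12, adjusted p = 0.000286). Of 19 tested AP-1, EGR and NR4A factors, a list that also holds the phosphatase gene Dusp1, 8 were higher and 2 lower. Without WT library 2, 1 was lower. With a pseudocount of 0.1 or genes of at least 5 FPKM, 5 were higher. Egr2 was 0.843 and 0.344 FPKM in WT and 4.17 and 4.54 FPKM in STAT3-KO (1.77 ± 0.22, adjusted p = 0.000349), and Atf3 was 18.3 and 24.96 FPKM in WT and 92.7 and 85.2 FPKM in STAT3-KO (2.01 ± 0.30, adjusted p = 0.000941), a call lost with a pseudocount of 0.1 (2.05, adjusted p = 0.111). In the BCL2 family, 5 of 12 were higher and 1 lower. The survival gene Bcl2l1, a STAT3 target in other cells, was higher at 101 and 114 FPKM in WT and 278 and 312 FPKM in STAT3-KO (1.45 ± 0.11, adjusted p = 2.88e-05), and the pro-death Bak1 was lower (-1.96 ± 0.28, adjusted p = 0.000753).

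Genes of glycolysis and of the response to low oxygen were lower more often than higher. Of 25 tested glycolysis genes, 10 were lower and 4 higher (median -0.43). Ldha, lactate dehydrogenase A, was 1694 and 1585 FPKM in WT and 771 and 871 FPKM in STAT3-KO (-0.999 ± 0.11, adjusted p = 0.000141), and the lactate exporter Slc16a3 was 117 and 141 FPKM in WT and 38.5 and 41.4 FPKM in STAT3-KO (-1.66 ± 0.14, adjusted p = 3.79e-05). Ldhb, the other lactate dehydrogenase subunit, was higher (1.31 ± 0.13, adjusted p = 9.5e-05). Of 16 tested hypoxia and HIF1 targets, 8 were lower and 1 higher, the latter being P4ha2, whose neighbours are named above. Hif1a itself was 184 and 183 FPKM in WT and 18.6 and 33.8 FPKM in STAT3-KO (-2.82 ± 0.24, adjusted p = 3.89e-05). Ero1l, an oxidase of the endoplasmic reticulum that HIF1 induces, was 1289 and 1263 FPKM in WT and 68.2 and 77.7 FPKM in STAT3-KO (-4.11 ± 0.18, adjusted p = 1.4e-06), and both WT libraries were above all control libraries. Bnip3 (-0.87), Ndrg1 (-1.56) and Kdm3a (-1.41) were lower as well.

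Genes of mitochondrial energy metabolism gave more higher than lower calls, with a median for the respiratory chain that changed sign without 1 library. Of 25 TCA cycle genes, 12 were higher and 0 lower (median 0.35); 6 were higher and 1 lower without STAT3-KO library 1, 7 higher without WT library 1, 5 higher without WT library 2, and 1 lower without STAT3-KO library 2. Suclg2 (1.02 ± 0.14, adjusted p = 0.000635) and Fh1 (0.76 ± 0.11, adjusted p = 0.000774) gave examples. Of 45 nuclear respiratory chain genes, 12 were higher and 1 lower (median 0.22); 7 were higher without WT library 1 and 6 without WT library 2. The median was -0.03 without STAT3-KO library 1, with 8 higher and 4 lower, and 0.43 without STAT3-KO library 2, with 17 higher. With the trend on transcript length removed it was 0.03, with 8 higher and 5 lower. Of 10 mitochondrially encoded mRNAs, 7 were higher. Transcripts of the mitochondrial genome took 3.33% and 2.31% of summed FPKM in WT with IL-33, 6.12% and 6.26% in STAT3-KO with IL-33 and 5.55% to 7.13% in the control libraries, so that the WT libraries with IL-33 stood lowest. mt-Co1, a cytochrome oxidase subunit, was 2525 and 1733 FPKM in WT and 5384 and 5539 FPKM in STAT3-KO (1.38 ± 0.16, adjusted p = 0.000272). The part of this share in other results was not tested.

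Genes of lipid synthesis were lower more often than higher. Of 23 cholesterol synthesis genes, 12 were lower and 0 higher (median -0.57). Without WT library 2 the median was -0.35, with 9 lower, and without STAT3-KO library 1 there were 8 lower; 1 was higher without WT control library 1 or 2. Insig1, the sterol sensor partner, was 68.8 and 70.02 FPKM in WT and 20.8 and 18.7 FPKM in STAT3-KO (-1.77 ± 0.11, adjusted p = 9.45e-06). Of 26 fatty acid genes, 10 were lower and 4 higher. The desaturase Scd2 was 47.7 and 44.9 FPKM in WT and 6.44 and 6.68 FPKM in STAT3-KO (-2.65 ± 0.42, adjusted p = 0.00133), Fads2 was -2.09 ± 0.24 (adjusted p = 0.000217) and Dgat1, which makes triglycerides, was -1.65 ± 0.14 (adjusted p = 4.17e-05). The higher genes were of fatty acid oxidation, led by Acadvl (1.04 ± 0.12, adjusted p = 0.000276).

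In the methionine cycle and salvage list, 7 of 21 genes were higher and 1 was lower, the latter being Ahcyl2 (-1.78 ± 0.24, adjusted p = 0.000547). Without STAT3-KO library 1 or 2 there were 4 higher, and without WT library 2 there was 1, so that the higher count rests on a few libraries. Ahcy, which removes S-adenosylhomocysteine, was 47.6 and 42.1 FPKM in WT and 64.5 and 82.95 FPKM in STAT3-KO (0.70 ± 0.16, adjusted p = 0.00841) and was not called without WT library 2 (0.61, adjusted p = 0.0766) or STAT3-KO library 2 (0.52, adjusted p = 0.0556). In serine and folate metabolism 5 were higher and 5 lower of 18, with 3 higher without WT library 1. The lower count was 2 without WT library 2 and 3 without each other IL-33 library or either STAT3-KO control library. Of 28 methyltransferase genes, 7 were higher and 2 lower; the higher count was 1 without STAT3-KO library 1, 2 without WT library 1, 3 without WT library 2 and 4 without STAT3-KO library 2 or either STAT3-KO control library, and 1 was lower without WT library 1 or 2. The maintenance DNA methyltransferase Dnmt1 was 27.8 and 28.1 FPKM in WT and 4.53 and 4.90 FPKM in STAT3-KO (-2.34 ± 0.14, adjusted p = 7.12e-06). For arginine and polyamines, 6 of 16 were lower and 2 higher; the higher ones were Sms and Srm. Without STAT3-KO library 1 neither of them was called (0.63, adjusted p = 0.0506 for Sms and 1.26, adjusted p = 0.117 for Srm), and without WT library 2 neither was called either (0.51, adjusted p = 0.0954 and 1.40, adjusted p = 0.117). Sms was also not called without STAT3-KO library 2, and Srm without WT library 1. Smox, which oxidises spermine, was 36.1 and 39.9 FPKM in WT and 6.25 and 6.89 FPKM in STAT3-KO (-2.36 ± 0.17, adjusted p = 1.47e-05).

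Genes of protein folding in the endoplasmic reticulum were lower more often than higher: 13 of 24 against 1 higher (median -0.49). Apart from Ero1l, the sensor Ern1, encoding IRE1, was 18.2 and 18.6 FPKM in WT and 3.94 and 5.19 FPKM in STAT3-KO (-1.81 ± 0.19, adjusted p = 0.000141), and the sensor Atf6 was 12.01 and 9.74 FPKM in WT and 2.32 and 3.27 FPKM in STAT3-KO (-1.65 ± 0.20, adjusted p = 0.000349). The chaperone Hspa5, or BiP, was 307 and 321 FPKM in WT and 247 and 241 FPKM in STAT3-KO (-0.36 ± 0.09, adjusted p = 0.0127). Xbp1, spliced by IRE1, was the higher one at 0.38 ± 0.10 (adjusted p = 0.0167), and its call was lost without WT library 1 (0.28, adjusted p = 0.105) or STAT3-KO library 2 (0.38, adjusted p = 0.0513), with the length trend removed (0.26, adjusted p = 0.0548) and without the variance trend (0.38, adjusted p = 0.065). Of 23 ATF4 targets and tRNA synthetases, 9 were lower and 3 higher (1 higher without STAT3-KO library 2, WT library 1 or WT library 2). Furin, a protease of the secretory route, was 345 and 459 FPKM in WT and 27.96 and 34.7 FPKM in STAT3-KO (-3.63 ± 0.16, adjusted p = 1.43e-06). It was higher with IL-33 than in control cells in both genotypes (5.83 ± 0.16 in WT and 2.14 ± 0.16 in STAT3-KO, IL-33 minus control). The interaction test gave -3.69 ± 0.23 (adjusted p = 3.24e-05).

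Most cell cycle genes were lower: 24 of 36 tested, with 3 higher and a median of -0.92. Top2a, a DNA topoisomerase of dividing cells, was 54.6 and 53.03 FPKM in WT and 10.3 and 14.4 FPKM in STAT3-KO (-2.06 ± 0.19, adjusted p = 6.21e-05). Rrm2, which makes deoxynucleotides, was 57.7 and 56.6 FPKM in WT and 20.8 and 24.6 FPKM in STAT3-KO (-1.30 ± 0.13, adjusted p = 0.000113), and Mki67 was 6.52 and 4.05 FPKM in WT and 1.13 and 1.25 FPKM in STAT3-KO (-1.49 ± 0.23, adjusted p = 0.00104). The 3 higher genes were the inhibitors Cdkn2a (2.34 ± 0.31, adjusted p = 0.000524) and Cdkn2c, whose call was lost without WT library 1 (0.81, adjusted p = 0.0613), WT library 2 or STAT3-KO library 1, and the cyclin Ccnd2 (1.19 ± 0.09, adjusted p = 2.6e-05). Cell cycle genes had a median of -0.24 between genotypes in control cells, in which 1 was called lower, Cdc20. Of 13 quiescence and egress genes, 7 were higher and 3 lower; without STAT3-KO library 2 or WT library 2 there were 4 higher, and without WT library 2 there was 1 lower. Slfn2, which keeps T cells quiescent, was 166 and 155 FPKM in WT and 316 and 278 FPKM in STAT3-KO (0.88 ± 0.11, adjusted p = 0.000276).

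**Figure D4:**
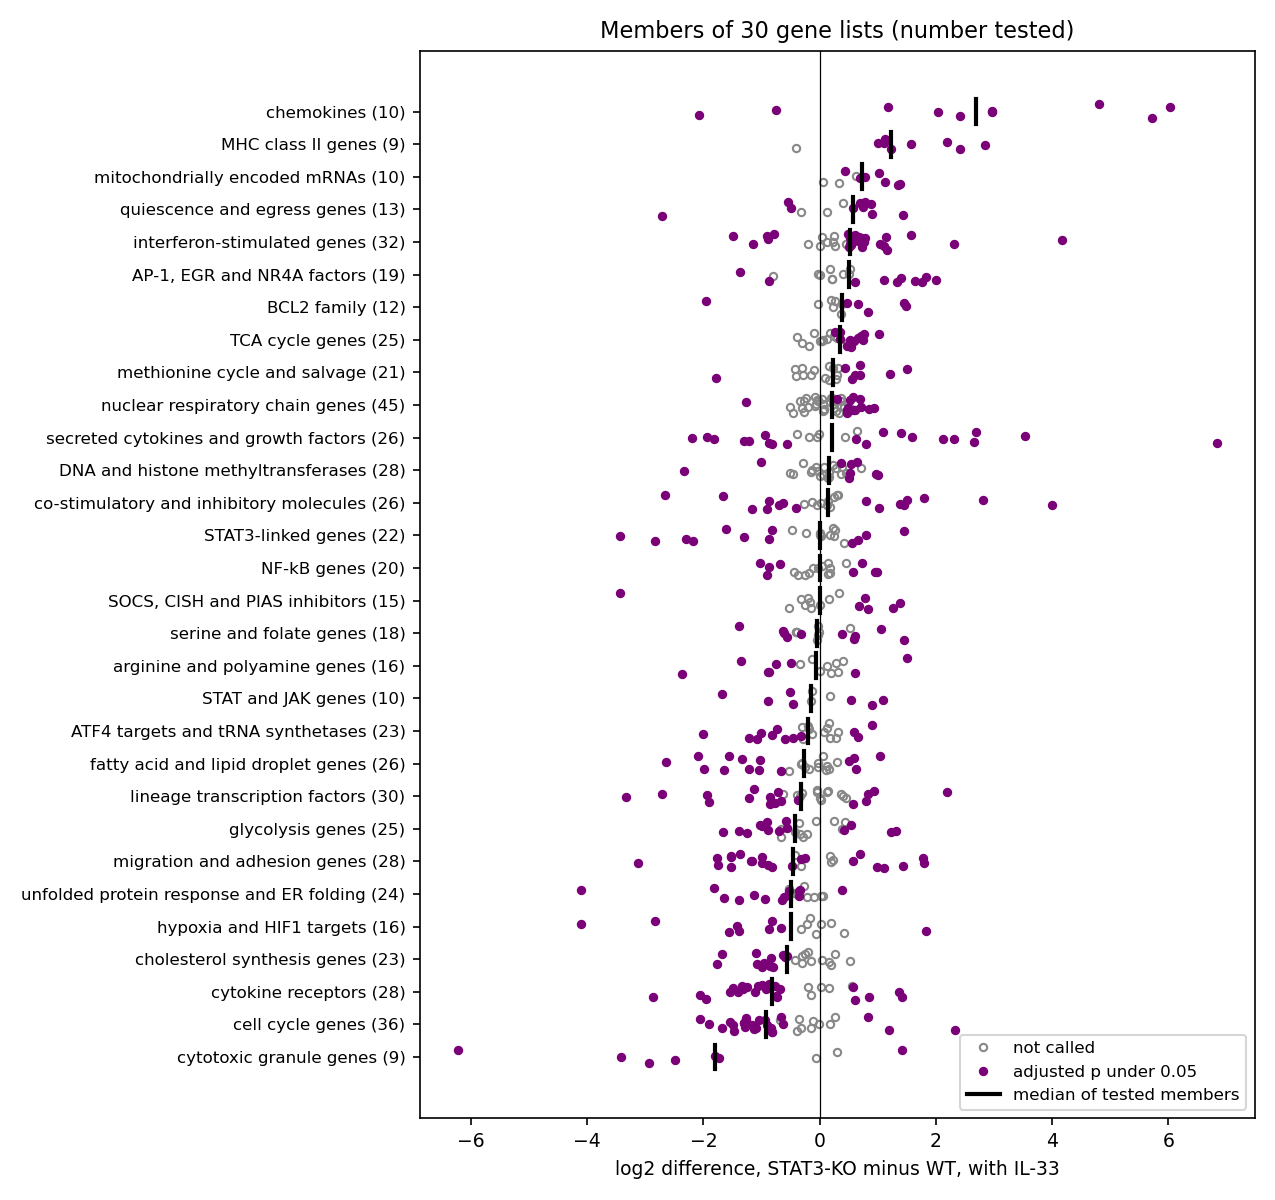
Each point is a tested member of 1 of 30 gene lists, placed by its log2 difference STAT3-KO minus WT with IL-33; filled points were called and a black bar marks the list's median. The lists run from chemokines, with a median of 2.68, to cytotoxic granule genes, with a median of -1.80.

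The largest single differences included genes outside these lists. Aqp9, a glycerol channel, was 107 and 115 FPKM in WT and 2.04 and 0.761 FPKM in STAT3-KO (-5.60 ± 0.27, adjusted p = 2.41e-06), and it was already lower in control cells (-2.17 ± 0.27, adjusted p = 0.0114). Ly6c1 was 38.5 and 43.2 FPKM in WT and 0.110 and 0.0336 FPKM in STAT3-KO (-5.29 ± 0.20, adjusted p = 9.4e-07), and its neighbour Ly6a, the Sca-1 gene, was 1089 and 878 FPKM in WT and 117 and 109.8 FPKM in STAT3-KO (-3.10 ± 0.14, adjusted p = 1.43e-06). Ly6a was lower in control cells too (-0.95 ± 0.14, adjusted p = 0.022). The interferon-induced membrane protein Ifitm1 was 75.7 and 76.2 FPKM in WT and 7.85 and 4.78 FPKM in STAT3-KO (-3.43 ± 0.24, adjusted p = 1.63e-05). Prss23 was 11.6 and 9.88 FPKM in WT and listed at 0 in the other 6 libraries. Among the rises, Cx3cl1, the chemokine fractalkine, was 0.153 and 0.219 FPKM in WT and 23.4 and 29.8 FPKM in STAT3-KO (4.53 ± 0.27, adjusted p = 7.12e-06), Foxs1 was 0.690 and 0 FPKM in WT and 15.5 and 22.3 FPKM in STAT3-KO (3.91 ± 0.39, adjusted p = 9.63e-05), and Rxra, a retinoid receptor, was 0.727 and 0.799 FPKM in WT and 13.7 and 16.9 FPKM in STAT3-KO (3.20 ± 0.19, adjusted p = 7.03e-06). Crabp2, which carries retinoic acid to its receptors, was 0.228 and 0 FPKM in WT and 14.01 and 12.7 FPKM in STAT3-KO (3.70 ± 0.20, adjusted p = 4.39e-06).

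Among the tested genes, the genotypes differed far less without IL-33. These genes were chosen by their FPKM with IL-33, so genes detected only in control cells were not tested. In control cells 40 of the 10467 genes (0.382%) were called, 21 higher (0.201%) and 19 lower (0.182%), and 921 genes had an unadjusted p under 0.05. This count depended on single libraries: it was 1 without STAT3-KO control library 1, 11 without STAT3-KO control library 2, 6 without WT control library 1, 62 without WT control library 2, and 10 without either WT library with IL-33, which enter the estimate of the spread. Of these 40 genes, 36 were also called with IL-33, 31 in the same direction, which are 77.5% of the genes called in control and 0.756% of those called with IL-33. The 31 included Stat3, Tnfsf4, H2-Eb1, Thy1, Aqp9 and Il10ra. Of the other 5, Ifi47 was -0.76 ± 0.10 in control and 0.67 ± 0.10 with IL-33, Igtp and Irf9 went the same way as Ifi47, and Gzme and Gm23706 went the other way. For 2119 genes (20.2%) the genotype difference with IL-33 was itself different from that in control by the interaction test, 986 of them (9.42%) on the higher and 1133 (10.8%) on the lower side. That count was 1038 without WT library 2 with IL-33, 1110 without WT library 1 with IL-33, 1146 and 1108 without STAT3-KO control libraries 1 and 2, and 1293 without WT control library 1. For Il9 the interaction was 6.61 ± 0.35 (adjusted p = 2.46e-05), for Gzmb -6.89 ± 0.24 (adjusted p = 2.53e-06) and for Stat3 itself -0.94 ± 0.21 (adjusted p = 0.0143).

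**Figure D5:**
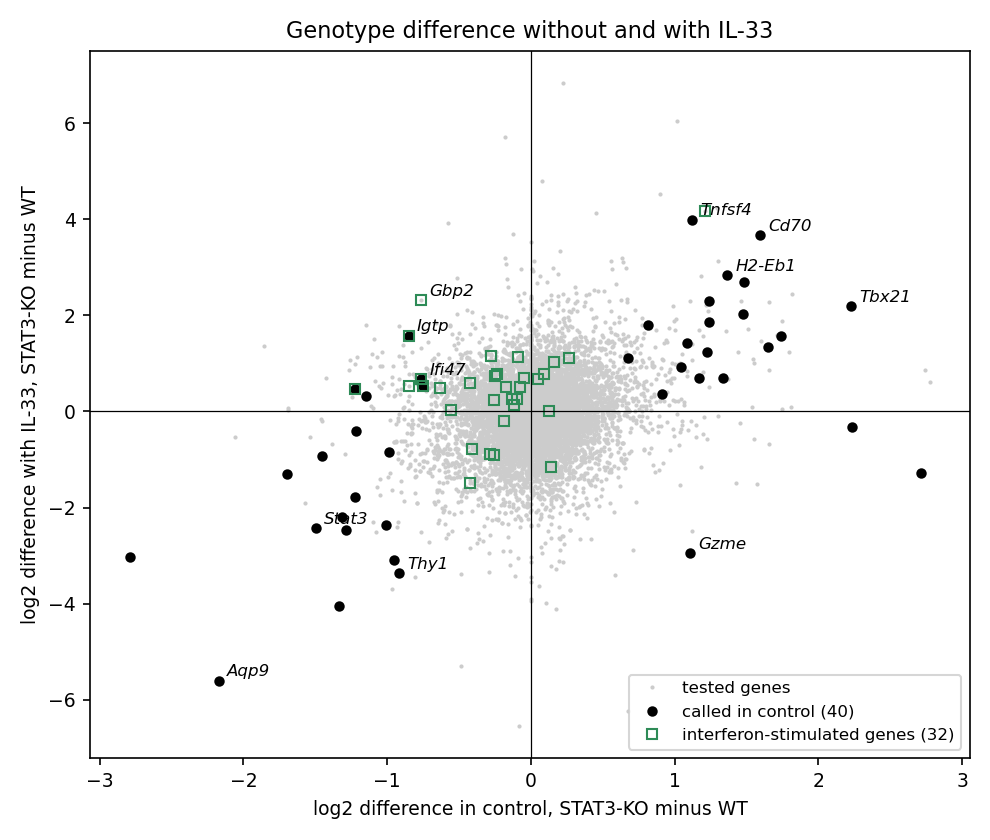
Each point is a tested gene, with the log2 difference STAT3-KO minus WT in control cells on the horizontal axis and that with IL-33 on the vertical axis; black points are the 40 genes called in control and green squares the 32 interferon-stimulated genes. Tnfsf4 and Stat3 differed the same way with and without IL-33, whereas Igtp, Ifi47 and Gzme changed sign.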

How the data were processed

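RNA of 8 libraries of cultured mouse lung ILC2s, 2 per group, was analysed from 1 table of gene FPKM values that the authors deposited, made with Bowtie2 and RSEM on GRCm38, per the submitters' processing notes. Versions, annotation and strand setting are not given in the sources used here, and reads of near-identical, overlapping or antisense genes cannot be separated. Of 22075 Ensembl identifiers, 22041 matched GENCODE M21, which gave merged exon lengths. In these, 93.4% to 94.6% of values of up to 100 reads per library lay within 0.02 of a whole number of reads, which gave each library's depth.

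Genes with FPKM of at least 1 in at least 2 of the 4 IL-33 libraries were fitted on log2(FPKM + 1), with a pseudocount of 1. The fit took all 8 libraries with 4 group means in limma 3.58.1 (R 4.3.3, eBayes with trend), with 4 residual degrees of freedom and a median of 5.25 prior ones. Contrasts were the genotype difference with IL-33, that in control, and the interaction, each adjusted by Benjamini-Hochberg over all tested genes at 0.05, two-sided. Tested on simulated data of 9879 genes for the IL-33 comparison, the fit recovered 44% of genes changed 1.5-fold, 96% at 2-fold and 100% at 4-fold and 8-fold, with 21 of 9679 unchanged genes called. These false calls were a larger share of all calls in the simulation than the threshold of 0.05, so the fit was too lenient there. Only 50 genes were changed at each fold. The simulation used the same spread for all genes and changed far fewer genes than the 39.2% called in the data. Its rates may therefore not carry over. Python 3.11.15, pandas 2.3.3, numpy 2.4.6 and matplotlib 3.10.9 made tables and figures.

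The members and lists were chosen with earlier results of these data known. A rule named 166 genes: 10 genes of interest, 15 called genes with the highest and 15 with the lowest log2 difference, of at least 5 FPKM in the higher group and without overlap between groups, leaving out unnamed gene models, and up to 3 called members of smallest p in each direction from each of 30 lists. Other list members, genes and chromosome stretches in the text were picked after their values were seen. Lists were described by counts and medians. Alternatives were the pseudocount, the FPKM minimum, rescaling by median of ratios, no trend, the 4 IL-33 libraries alone, a replicate block and leaving out each library. Removal of the trend with gene length, and list counts under all of these, were added after seeing the data. Promoters came from RefSeq (GRCm38.p6), matched by symbol for 7577 tested genes. Some named genes are not reported here.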

Additional observations from a re-analysis of the deposited data

Results flagged for a closer look

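For 135 of the 166 named genes the genotype difference with IL-33 was itself different from that in control cells, by the interaction test of the same limma fit (adjusted p under 0.05, against 20.2% of all tested genes). Most of the named genes were chosen for a large or well supported difference with IL-33, so this share says nothing about the genes as a set. Values are given for 131 of them. Each value is the log2 difference STAT3-KO minus WT with IL-33 minus the same difference in control cells, so that a positive value means a difference further to the STAT3-KO side with IL-33, and each gene is given under the first list that holds it.

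Among STAT and JAK genes, it was 1.10 for Stat5b and 1.08 for Stat5a, and on the lower side -1.82 for Jak1. In STAT3-linked genes the values were 1.12 for Bcl2l1 and 1.10 for Lif, and on the lower side -1.09 for Birc5, -1.18 for Fosl2, -2.63 for Socs3 and -2.89 for Hif1a. For SOCS, CISH and PIAS inhibitors it came to 1.11 for Ptpn6. The interaction in secreted cytokines and growth factors was 6.61 for Il9, 3.53 for Nts and 2.07 for Csf2, and on the lower side -2.22 for Il5, -2.27 for Il13 and -2.34 for Il24. Cytokine receptors gave 1.21 for Il12rb1, and on the lower side -1.36 for Il7r, -1.41 for Ifngr1, -1.66 for Il17ra and -2.32 for Il1rl1. Across lineage transcription factors it measured -0.88 for Gata3, -1.03 for Id2, -2.37 for Ets1 and -3.04 for Id3. Among chemokines, it was 5.90 for Ccl3, 5.02 for Ccl5, 4.73 for Ccl9 and 3.03 for Ccl4, and on the lower side -1.94 for Cxcl2. In migration and adhesion genes the values were 1.58 for Ccr7, 0.99 for Ptger4 and 0.87 for Icam1, and on the lower side -1.15 for Ccr8, -1.48 for Ccr2 and -1.70 for Cd69. For cytotoxic granule genes it came to -3.99 for Ctsw, -4.05 for Gzme and -6.89 for Gzmb. The interaction in co-stimulatory and inhibitory molecules was 2.87 for Tnfsf4, 2.76 for Cd200 and 0.69 for Cd80. On the lower side it was -0.77 for the enzyme gene Arg1, -1.15 for Klrg1 and -2.86 for Ctla4. MHC class II genes gave 2.04 for H2-DMa, 1.82 for H2-Aa and 1.48 for H2-Eb1.

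Across NF-kB genes it measured 0.90 for Nfkb2, and on the lower side -0.95 for Nfkb1, -1.24 for Ier3 and -1.33 for Birc2. Among AP-1, EGR and NR4A factors, it was 2.24 for Atf3, 1.95 for Egr2 and 1.42 for Egr3. On the lower side it was -1.26 for the phosphatase gene Dusp1, which this list also holds. In BCL2 family the values were 0.94 for Bcl2a1d, and on the lower side -1.81 for Bak1. For interferon-stimulated genes it came to 3.08 for Gbp2, 2.96 for Iigp1 and 2.43 for Igtp, and on the lower side -1.07 for Isg20 and -1.29 for Parp14. The interaction in mitochondrially encoded mRNAs was 1.14 for mt-Co1, 1.12 for mt-Nd2 and 0.88 for mt-Nd4. Nuclear respiratory chain genes gave 0.83 for Uqcrc1 and 0.63 for Atp5b, and on the lower side -1.47 for Ndufa1. Across TCA cycle genes it measured 0.92 for Suclg2, 0.78 for Fh1 and 0.77 for Pdhb. Among glycolysis genes, it was 1.05 for Pfkm, 0.82 for Ldhb and 0.69 for Pfkp, and on the lower side -0.79 for Pkm, -0.83 for Eno1, -1.06 for Pdk1 and -1.21 for Slc16a3. In methionine cycle and salvage the values were 2.59 for Srm and 0.65 for Mtap, and on the lower side -1.86 for Ahcyl2. For serine and folate genes it came to 1.16 for Gcsh, 1.16 for Gldc and 0.68 for Gart. The interaction in DNA and histone methyltransferases was -1.21 for Setdb1 and -2.48 for Dnmt1.

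Cholesterol synthesis genes gave -1.07 for Sc5d and -1.96 for Insig1. Across fatty acid and lipid droplet genes it measured 0.92 for Acadvl, and on the lower side -1.39 for Fads1, -1.60 for Fads2 and -1.86 for Dgat1. Among unfolded protein response and ER folding, it was 0.53 for Xbp1, and on the lower side -0.98 for Dnajc3, -1.95 for Ern1 and -4.28 for Ero1l. In ATF4 targets and tRNA synthetases the values were -0.69 for Aars, -1.04 for Iars and -1.91 for Slc38a2. For cell cycle genes it came to 2.08 for Cdkn2a and 0.83 for Ccnd2, and on the lower side -1.11 for Bub1, -1.21 for Mcm4 and -1.24 for Cdc6. The interaction in arginine and polyamine genes was -1.04 for Ass1 and -2.36 for Smox. Hypoxia and HIF1 targets gave 1.72 for P4ha2, which went against most of its list. Of the 16 tested members, 1 was higher and 7 were lower by the interaction test. Across quiescence and egress genes it measured 1.09 for Slfn2 and 0.72 for Btg2, and on the lower side -0.63 for Pik3ip1. Among named genes outside the lists, it was 4.49 for Foxs1, 3.82 for Crabp2, 3.69 for Ifi27l2a, 3.63 for Cx3cl1, 3.38 for Rxra, 3.13 for Gypc, 2.93 for Cd83 and 2.08 for Cd70, and on the lower side -0.94 for Stat3, -2.71 for Lrrc25, -2.72 for Adgrg3, -2.90 for Lhfpl1, -3.32 for Ifitm1, -3.43 for Aqp9, -3.44 for Usp17ld, -3.55 for Prss23, -3.69 for Furin, -4.08 for Serinc5, -4.80 for Ly6c1 and -6.45 for Mcpt8.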

How the results depend on the processing

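For the named genes, 139 of 166 kept their direction and their side of the threshold under each of up to 17 alternatives; over all these genes and alternatives 2744 values did so, 63 were no longer called and 2 changed sign. Both sign changes were of Areg, which was not called in any setting: -0.02 became 0.083 without STAT3-KO library 2 with IL-33 and 0.032 without WT library 1 with IL-33, in a range of -0.117 to 0.083 without single libraries. Leaving out 1 library at a time, the called genes with IL-33 ranged from 2382 to 4246, those higher from 1180 to 2152 and those lower from 1202 to 2095. The control count of 40 ranged from 1 to 62, and the interaction count of 2119 from 1038 to 2249. The control count was 71 for genes of at least 5 FPKM, 9 without a filter and 24 without the variance trend, and the interaction count was 1230 without a filter. The cause was not tested. Rescaling by median of ratios gave 2115 higher and 2033 lower genes and changed the sign of 0 of 30 list medians; removal of the length trend changed 3.

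Same-numbered libraries of different groups did not deviate together (correlations of -0.08 to 0.07 across genes). This cannot decide whether they shared a mouse, day or culture, since the spread within groups may be technical. A fit with a replicate block called 4068 genes (2049 higher, 2019 lower), against 4100. With 2 libraries per group, small differences were often not detectable.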
